A study of Arabidopsis thaliana with 30 samples.

Results

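Leaf 3 of Arabidopsis thaliana Col-0 seedlings was compared between day 12 and day 11 after stratification, a cold period given to seeds so that they germinate together. Of the 30 arrays of the series, 6 belonged to these ages, the 3 biological repeats labelled 12 DAS and the 3 labelled 11 DAS. They came from an untreated time course of 18 AGRONOMICS1 tiling arrays, with 3 arrays for each of days 8, 9, 10, 11, 12 and 13. The other 12 arrays, of leaves treated with the herbicide norflurazon and their untreated controls, were not used. All plants were wild type, and both ages shared the same MS medium, 22 °C and a cycle of 16 h of light and 8 h of dark. The hour of harvest and the number of plants pooled per sample are not stated in the labels. Levels are log2 values after RMA normalization, and a change is the day 12 mean minus the day 11 mean ± the standard error of the limma fit, so that a change of 1 is a 2-fold difference.

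A young Arabidopsis leaf first grows by cell division, and then cells stop dividing from the tip towards the base and grow by expansion. Proliferating cells express B-type cyclins and B-type cyclin-dependent kinases, which drive mitosis, and KNOLLE (KN), the syntaxin of cell plate formation. Expanding cells often endoreduplicate, copying their DNA without division, and use expansins and other wall-loosening proteins. Trichome initiation and the early stomatal lineage belong to the young stages, while photosynthetic capacity and vascular function build up as the leaf matures.

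The labelled tissue was checked against marker genes. All 14 probe sets of light harvesting proteins lay above the array median on both days, at 5.0 to 12.90 on day 12 and at 4.74 to 12.75 on day 11. The 16 probe sets of markers of other organs (shoot meristem, root, flower and seed genes) lay at 2.79 to 4.1 on day 12 and at 2.63 to 4.03 on day 11, near the median of all 30237 probe sets, 3.59. Arrays of 1 day correlated at 0.978 to 0.984 across probe sets, and an array of day 12 with one of day 11 at 0.971 to 0.980.

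Across all 30237 probe sets, 210 (0.695%) differed between the ages at an adjusted p under 0.05, 110 (0.364%) higher and 100 (0.331%) lower on day 12. The higher ones changed by a median of 0.85 and stood at a median level of 5.21 on day 12, against 4.21 on day 11. The lower ones changed by a median of -0.75, with median levels of 5.64 on day 12 and 6.54 on day 11. A change of at least 1 was found for 38 higher and 19 lower probe sets, and a change of at least 2 for 5. For all 210, the 3 arrays of one day lay apart from the 3 of the other. The calls were made from these same arrays, so this separation is no further support for them. Over all probe sets, called or not, 8.32% had day 12 wholly above day 11 and 9.06% wholly below. Most called changes were under 1 log2 unit, and the largest were falls.

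**Figure D1:**
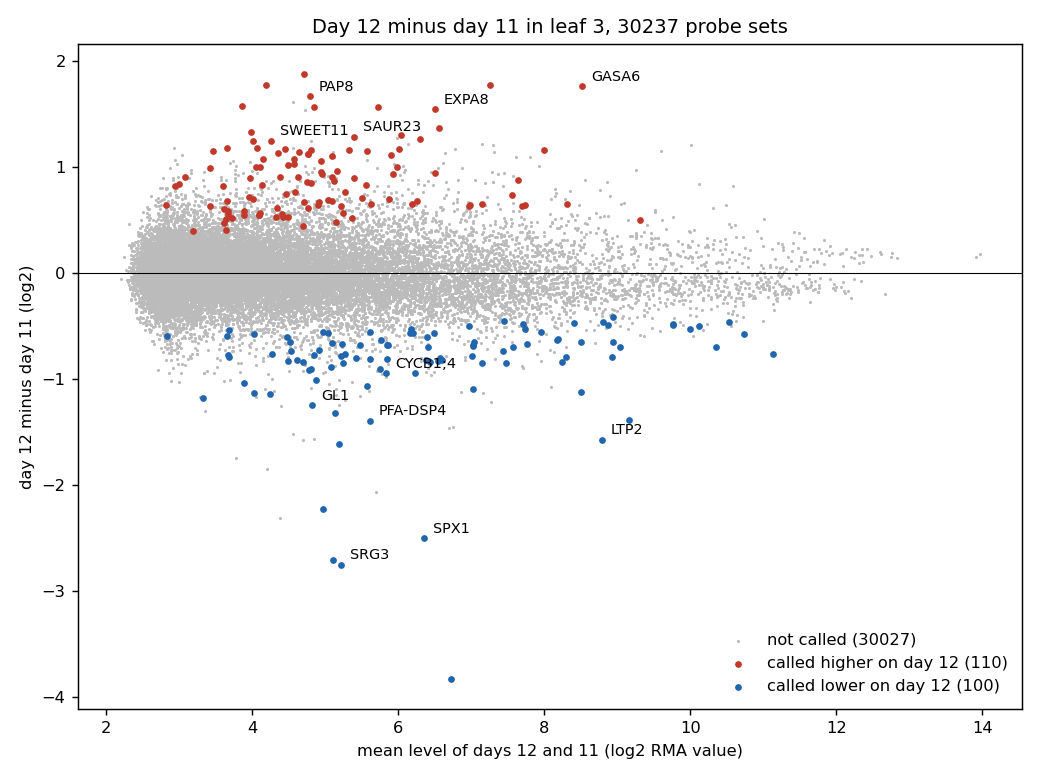
Change (day 12 minus day 11, log2) against the mean level of both days (log2) for 30237 probe sets, 3 arrays a day. The 110 called higher (red) and the 100 called lower (blue) are spread over low and high levels, and the points below -2 include SPX1 and SRG3.

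The number of calls depended on single arrays. It was 17 without replicate 3 of day 12 and 10 without replicate 2 of day 11, and 93, 242, 29 and 143 without replicates 1 and 2 of day 12 and replicates 1 and 3 of day 11. Only 9 of the 210 were called in each of these 6 fits. The 6 that rose were PAP8, SAUR23, SNRK2-8, BGLU33 and the loci AT1G23130 and AT1G67865, and the 3 that fell were EB1C, AT1G54010 and AT2G41730. The 4 loci without a symbol were named after their values were seen.

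Mitosis genes made up 11 of the 100 falls. In 3 lists that covered mitotic cyclins and kinases, the spindle and chromosomes, and cytokinesis, 11 of 62 probe sets were called lower and 0 higher, where 0.331% of all probe sets were called lower. The mean was lower on day 12 for 59 of the 62, against 50.3% of all, and the arrays of day 12 lay wholly below those of day 11 for 32. The median change over the 62 was -0.42, and over all probe sets it was -0.00136. In bulk leaf RNA, fewer dividing cells and less of these transcripts per cell cannot be told apart.

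Among the mitotic cyclins, kinases and activators, 6 of 29 probe sets fell, with a median change of -0.47. CYCB1;4, a B-type cyclin, had levels of 5.47, 5.63 and 4.99 on day 12, against 6.50, 6.38 and 6.04 on day 11. It fell by 0.95 ± 0.17 (adjusted p = 0.0241), and the days did not overlap. CDKB2;2, a plant-specific mitotic kinase, measured 5.87, 6.28 and 5.73 on day 12, against 6.71, 7.04 and 6.60 on day 11. It fell by 0.82 ± 0.15 (adjusted p = 0.0229), while the related kinase genes CDKB1;1 and CDKB2;1 fell by 0.78 ± 0.14 (adjusted p = 0.0235) and 0.70 ± 0.13 (adjusted p = 0.0275). The A-type cyclin gene CYCA2;4 fell by 0.73 ± 0.16 (adjusted p = 0.0475). CYCB1;1, the cyclin whose promoter is widely used to mark dividing cells, had 4.91, 4.97 and 4.40 on day 12, against 5.48, 5.46 and 5.32 on day 11 and fell by 0.66 ± 0.14 (adjusted p = 0.0348). Other mitotic genes of the list missed the threshold, such as CYCB1;2 with a change of -0.93 (adjusted p = 0.0681) and CDC20.1, an activator of the anaphase-promoting complex, with -0.74 (adjusted p = 0.178). CDKA;1, the kinase that acts throughout the cell cycle, changed by -0.04 and the transcription factor genes MYB3R1 and MYB3R4 by -0.08 and 0.01.

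Of the spindle, kinetochore and chromosome genes, 4 of 18 probe sets fell and all 18 had a lower mean on day 12. AUR2, an Aurora kinase of the spindle, had levels of 6.32, 6.30 and 5.77 on day 12, against 7.01, 7.01 and 6.87 on day 11, and BUBR1, a spindle checkpoint gene, had 4.02, 4.36 and 3.83 on day 12, against 4.61, 5.19 and 4.88 on day 11. Their falls were -0.83 (adjusted p = 0.0404) and -0.83 (adjusted p = 0.0481), and in both the days were separate. AUR1 fell by 0.61 ± 0.12 (adjusted p = 0.0279) and 3xHMG-box2, a protein of condensed chromosomes, by 0.70 ± 0.15 (adjusted p = 0.0374). The centromeric histone gene HTR12 changed by -0.71 and missed the threshold (adjusted p = 0.0529).

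The cytokinesis list held 15 probe sets, of which KN alone fell, and all 15 means were lower on day 12. KN measured 7.13, 7.30 and 6.76 on day 12, against 7.73, 7.98 and 7.69 on day 11, a fall of 0.74 ± 0.16 (adjusted p = 0.0483). PLE, a microtubule-bundling protein of the phragmoplast, changed by -0.70 (adjusted p = 0.0546) and the kinesin gene HIK by -0.55 (adjusted p = 0.108). Outside the lists, EB1C, a microtubule plus-end protein, had 4.94, 4.86 and 4.66 on day 12, against 5.77, 5.74 and 5.49 on day 11. Its fall of 0.85 ± 0.11 (adjusted p = 0.00673) was among the 9 calls that held without any 1 array, with a highest adjusted p of 0.0496. MKK6, a MAP kinase kinase that acts in cytokinesis, fell by 1.01 ± 0.16 (adjusted p = 0.0137). With 1 array left out, the highest adjusted p of CYCB1;4, CDKB2;2, CDKB1;1, CDKB2;1, CYCB1;1, AUR1, AUR2, BUBR1, 3xHMG-box2, KN and MKK6 was 0.0898 to 0.233, reached in each without replicate 3 of day 12. For CYCA2;4 it was 0.184, without replicate 1 of day 11.

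Histone genes were also lower. The list of replication-dependent histones had 2 of 8 probe sets called lower, where 0.331% of all probe sets were. All 8 had day 12 wholly below day 11 (9.06% of all probe sets), at a median change of -0.48. The H3.1 gene AT1G09200 had levels of 9.78, 9.72 and 9.71 on day 12, against 10.29, 10.44 and 10.07 on day 11 and fell by 0.53 ± 0.10 (adjusted p = 0.0243). The H3.1 gene AT3G27360 fell by 0.49 ± 0.09 (adjusted p = 0.023). These genes are near copies of each other, so their probes may share signal. Without replicate 2 of day 11 the first had an adjusted p of 0.123, and without replicate 3 of day 12 the second had 0.119.

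None of the 18 probe sets for DNA replication and licensing was called, although all 18 had a lower mean on day 12 and 9 had day 12 wholly below day 11. At an unadjusted p under 0.05, limma had 8 of the 18 lower and 0 higher, where 5.85% of all probe sets were lower and 5.86% higher at that threshold. PCNA1, the sliding clamp of DNA polymerase, measured 8.01, 7.97 and 7.74 on day 12, against 8.47, 8.46 and 8.35 on day 11, a change of -0.52 (adjusted p = 0.125). Of the 12 probe sets for regulators of entry into the cell cycle, none was called, and CYCD3;3, a D-type cyclin, changed most, by -0.53 (adjusted p = 0.0585).

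Genes that control the length of the proliferation phase were not called either. The list of leaf proliferation and size regulators held 26 probe sets, with a median change of -0.12, of which 6 were lower and 0 higher at an unadjusted p under 0.05 (5.85% and 5.86% of all probe sets). AN3, a transcriptional coactivator that promotes leaf cell proliferation, had levels of 5.33, 5.60 and 4.19 on day 12, against 6.11, 6.31 and 6.04 on day 11. The days did not overlap, but the change of -1.11 missed the threshold (adjusted p = 0.113). GRF5, its partner transcription factor, changed by -0.58 (adjusted p = 0.286) and lay at 3.06 on day 12, below the array median, so that its change may be understated. Over the 6 days AN3 averaged 7.53, 7.18, 6.20, 6.16, 5.04 and 3.68 from day 8 to day 13, lower on each day than on the day before.

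Endocycle activators and inhibitors of cyclin-dependent kinases gave 0 calls among 15 probe sets, with changes of -0.82 to 0.58. At an unadjusted p under 0.05, 2 were higher and 4 lower, against 5.86% and 5.85% of all probe sets. KRP3, an inhibitor that is found in dividing tissue, changed by -0.82 (adjusted p = 0.207) and SMR1, an inhibitor that promotes endoreduplication, by 0.58 (adjusted p = 0.345). CCS52A1, an activator of the anaphase-promoting complex in endocycles, was at 3.98 on day 12 and 3.95 on day 11.

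**Figure D2:**
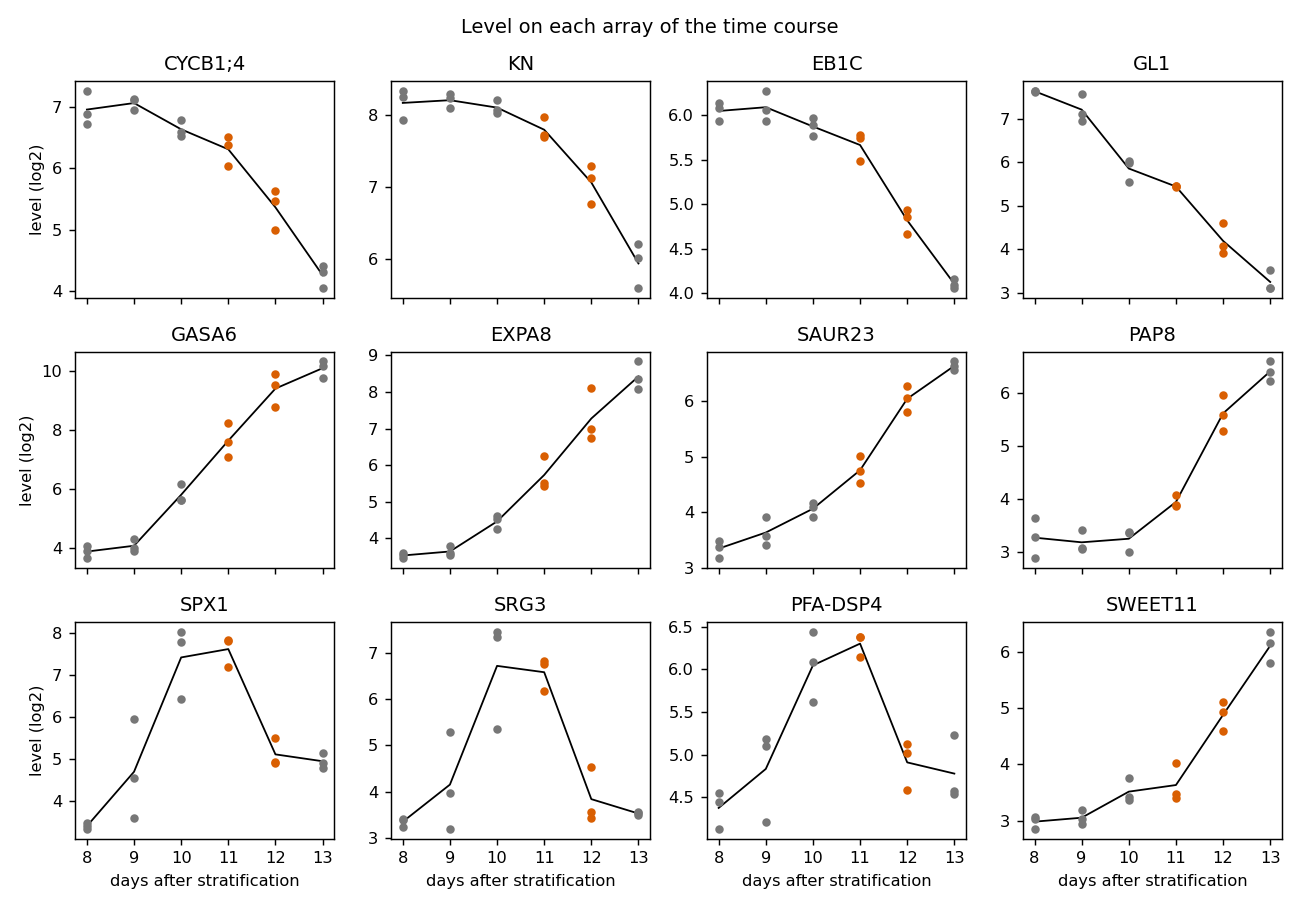
Level (log2) of 12 genes on each of the 18 time-course arrays against days after stratification. Points are arrays (orange for days 11 and 12), lines join the daily means. CYCB1;4, KN, EB1C and GL1 fall towards day 13, GASA6, EXPA8, SAUR23, PAP8 and SWEET11 climb, and SPX1, SRG3 and PFA-DSP4 peak on days 10 and 11.

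Single genes of growth and wall loosening rose. GASA6, a small cysteine-rich peptide of a gibberellin-regulated family, had levels of 9.52, 8.79 and 9.89 on day 12, against 7.59, 7.06 and 8.25 on day 11. It rose by 1.77 ± 0.28 (adjusted p = 0.0144), the largest rise among genes with a symbol. EXPA8, an alpha-expansin, measured 6.99, 6.73 and 8.10 on day 12, against 5.50, 5.42 and 6.26 on day 11 and rose by 1.54 ± 0.29 (adjusted p = 0.0243). SAUR23, a small auxin up RNA gene of a class that promotes cell expansion, had 6.26, 5.81 and 6.05 on day 12, against 4.52, 4.73 and 5.01 on day 11. Its rise of 1.29 ± 0.15 (adjusted p = 0.00386) held without any 1 array. EXLB1, an expansin-like gene, rose by 1.33 ± 0.21 (adjusted p = 0.0137) and lay at 4.64 on day 12, against 3.31 on day 11, below the array median there. The mean of EXPA8 was higher on each day than on the day before, with 3.53, 3.64, 4.46, 5.73, 7.27 and 8.42 from day 8 to day 13, while EXLB1 lay at 3.1, 3.02 and 3.03 on days 8, 9 and 10. With 1 array left out, adjusted p reached 0.0898 for GASA6 and 0.0864 for EXLB1 (without replicate 3 of day 12), and 0.123 for EXPA8 (without replicate 2 of day 11).

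Relatives of these genes were set beside all probe sets, of which 0.364% were called higher and 49.7% had a higher mean. Day 12 lay wholly above day 11 for 8.32% of all. At an unadjusted p under 0.05, limma had 5.86% of all higher and 5.85% lower. Of 17 expansin probe sets only EXPA8 was called, and 10 had a higher mean on day 12 (median change 0.06). Day 12 lay wholly above day 11 for 7 of them, and 5 were higher and 0 lower at the unadjusted threshold. EXPA1, another alpha-expansin, had 7.87, 7.78 and 8.05 on day 12, against 6.94, 7.41 and 7.36 on day 11, a change of 0.66 that missed the threshold (adjusted p = 0.0929). Of 16 SAUR probe sets only SAUR23 was called, 14 had a higher mean and the median change was 0.43. SAUR64 came next with 0.94 (adjusted p = 0.0714). Day 12 lay wholly above day 11 for 6 of the 16, and 6 were higher and 0 lower at the unadjusted threshold. GASA6 was the single call among 12 GASA and gibberellin probe sets, whose median change was 0.05. At the unadjusted threshold 2 of the 12 were higher and 0 lower. Xyloglucan endotransglucosylases, which cut and rejoin wall polymers, gave 0 calls of 18, and XTH24 changed most, by -0.78 (adjusted p = 0.161). Of these 18, 2 were higher and 5 lower at the unadjusted threshold. Primary wall cellulose synthesis gave 0 of 7, with 0.26 for CESA2 (adjusted p = 0.299), and aquaporins 0 of 17, with 0.96 for PIP2;2 (adjusted p = 0.178). At the unadjusted threshold 1 cellulose synthesis probe set was higher and 0 lower, and 6 aquaporin probe sets were higher and 1 lower. The median change of the aquaporins was 0.23.

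Hormone response lists held no called member, and at an unadjusted p under 0.05 the auxin list had 5 higher and 1 lower, the cytokinin list 6 and 0, and the brassinosteroid list 0 and 0, where 5.86% of all probe sets were higher and 5.85% lower. Auxin response genes had a median change of 0.29 over 16 probe sets, and GH3.3, an auxin-conjugating enzyme, changed most, by -0.93 (adjusted p = 0.0556). The cytokinin list had a median of 0.28 over 13, with ARR6, a response regulator, at 0.58 (adjusted p = 0.312). The brassinosteroid list had a median of 0.10 over 11, with KDR at 0.48 (adjusted p = 0.482).

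Genes of the phosphate starvation response gave the largest falls among genes with a symbol. Plants short of phosphate induce transporters, phosphatases and enzymes that replace phospholipids, through the transcription factor PHR1, which SPX proteins hold back when phosphate is ample. SRG3, a glycerophosphodiester phosphodiesterase, had levels of 3.42, 4.54 and 3.55 on day 12, against 6.18, 6.82 and 6.76 on day 11 and fell by 2.75 ± 0.50 (adjusted p = 0.0235). SPX1 had 4.91, 5.50 and 4.90 on day 12, against 7.19, 7.82 and 7.81 on day 11 and fell by 2.50 ± 0.45 (adjusted p = 0.0229). For both genes the lowest array of day 11 stood more than 1 log2 unit above the highest array of day 12. The phosphate transporter gene PHT1;4 fell by 0.59 ± 0.13 (adjusted p = 0.042) to 3.36 on day 12, below the array median, against 3.95 on day 11.

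In the whole list, 3 of 30 probe sets fell and 0 rose, where 0.331% of all probe sets were called lower, and the median change was -0.35. A lower mean on day 12 was found for 26 of the 30, against 50.3% of all, and day 12 lay wholly below day 11 for 17, against 9.06% of all. The phosphatase gene PS2 changed by -2.31 (adjusted p = 0.0628) and the purple acid phosphatase gene PAP17 by -1.46 (adjusted p = 0.153). The sulfolipid synthesis genes SQD1 and SQD2 changed by -1.14 (adjusted p = 0.0854) and -0.87 (adjusted p = 0.247). PHR1 changed by 0.32 (adjusted p = 0.35). Outside the list, PFA-DSP4, an atypical dual-specificity phosphatase, had 5.02, 5.12 and 4.58 on day 12, against 6.15, 6.38 and 6.38 on day 11 and fell by 1.39 ± 0.26 (adjusted p = 0.0254). Without replicate 3 of day 12, adjusted p was 0.119 for SRG3, 0.119 for SPX1, 0.201 for PHT1;4 and 0.139 for PFA-DSP4.

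Among 13 purple acid phosphatase probe sets, 2 were called higher and 0 lower, where 0.364% and 0.331% of all probe sets were. At an unadjusted p under 0.05, limma had 2 higher and 3 lower, against 5.86% and 5.85% of all. Day 12 lay wholly above day 11 for 2 (8.32% of all) and wholly below for 3 (9.06%). PAP8 had levels of 5.60, 5.30 and 5.97 on day 12, against 4.09, 3.86 and 3.90 on day 11 and rose by 1.67 ± 0.19 (adjusted p = 0.00386), a call that held without any 1 array. PAP3 had 6.59, 6.07 and 6.79 on day 12, against 5.20, 5.60 and 5.63 on day 11 and rose by 1.0 ± 0.19 (adjusted p = 0.0272, and 0.148 without replicate 3 of day 12). None of the other 11 probe sets was called, and PAP10, PAP12 and PAP17, which the phosphate list also holds, had lower means on day 12. Neighbouring nutrient lists had 0 calls: LSU3 of the sulfur list changed by -0.54 (adjusted p = 0.608), and the ferritin gene FER1 of the iron list by -0.83 (adjusted p = 0.661). FER1 had 8.51, 8.57 and 5.54 on day 12, against 8.03, 8.68 and 8.40 on day 11, so its lower mean came from replicate 3 of day 12.

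Several phosphate genes changed differently than in an earlier interval. The change over days 11 to 12 was set against the change over days 9 to 10, which shares no array with it, and the difference was called for 42 probe sets (0.139%), 16 positive and 26 negative. Of the 26, 25 had a higher mean on day 10 than on day 9 and a lower mean on day 12 than on day 11. Members of the phosphate list made up 8 of the 42. SPX1 averaged 3.40, 4.69, 7.41, 7.61, 5.10 and 4.94 from day 8 to day 13, so the difference between its intervals was -5.22 ± 0.64 (adjusted p = 0.00527). SRG3 averaged 3.34, 4.15, 6.73, 6.59, 3.84 and 3.52 on the same days, with a difference of -5.33 ± 0.71 (adjusted p = 0.00853). The other members called were PS2 (-4.89), PAP17 (-4.31), G3Pp1 (-2.68), SQD1 (-2.66), SQD2 (-2.45) and PHO2 (-1.09), where negative values mean that the change over days 11 to 12 was the lower one. On day 9 the 3 arrays of SPX1 spread from 3.59 to 5.94 and those of SRG3 from 3.19 to 5.29, as the plot of levels by day shows. The count of 42 was 4 without replicate 2 of day 11, 4 without replicate 3 of day 11, and 22, 19, 21 and 26 without replicates 1, 2 and 3 of day 12 and replicate 1 of day 11. Single arrays of days 9 and 10 were not left out.

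**Figure D3:**
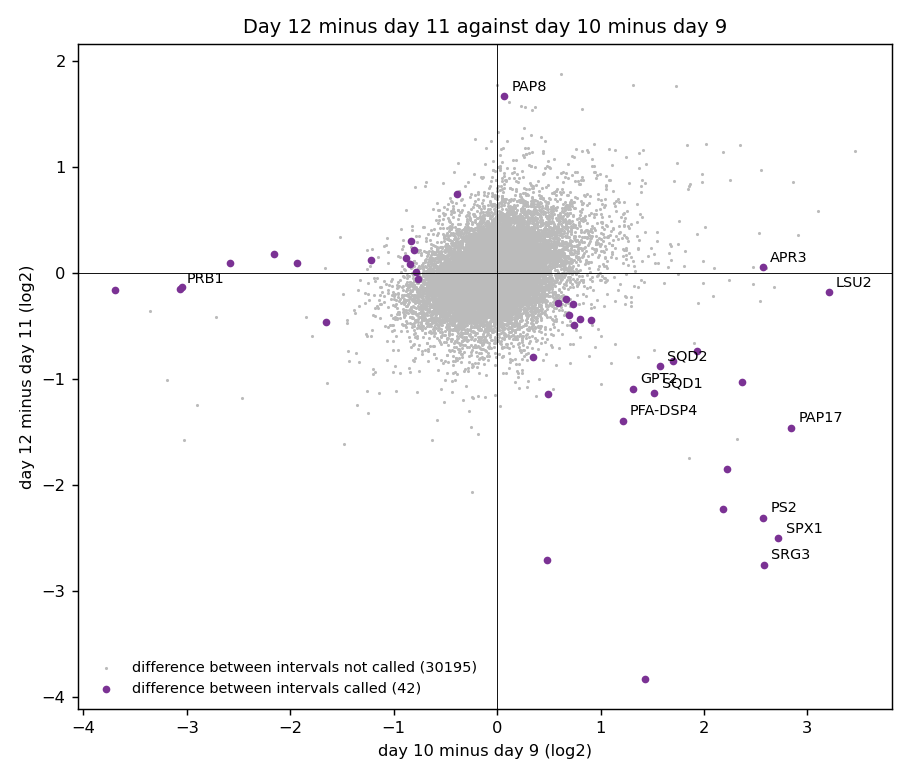
Change over days 11 to 12 (vertical, log2) against the change over days 9 to 10 (horizontal, log2) for 30237 probe sets, with the 42 whose changes differ between the intervals in purple. SPX1, SRG3, PS2 and PAP17 lie at lower right, PRB1 at far left near 0 on the vertical axis, and PAP8 at the top.

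Of the 16 positive differences, 15 had a lower mean on day 10 than on day 9. PRB1, a basic pathogenesis-related protein, changed by -0.15 over days 11 to 12, against -3.07 over days 9 to 10. The protease inhibitor gene UPI changed by 0.18, against -2.15, so the contrast for both genes lay in the earlier interval. PAP8 was the exception, with 1.67 over days 11 to 12, against 0.07 over days 9 to 10, a difference of 1.60 ± 0.27 (adjusted p = 0.0351). LSU2 and APR3 of the sulfur starvation list had negative differences of -3.39 and -2.52, with changes of -0.18 and 0.06 over days 11 to 12.

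For most called genes the means went the same way in both intervals. The mean had also been higher on day 10 than on day 9 for 97 of the 110 called higher (88.2%), where 47.2% of all probe sets had a higher mean, and lower for 84 of the 100 called lower (84%), where 52.8% had a lower mean. Of the 210, 10 differed between the intervals, 2 called higher and 8 called lower.

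Aliphatic glucosinolate genes had higher means on day 12. These defence compounds are made from methionine in the order Brassicales, under the control of MYB28 and MYB29. Of 10 probe sets 2 were called higher, where 0.364% of all probe sets were. All 10 had a higher mean (49.7% of all did) and 8 had day 12 wholly above day 11 (8.32% of all), with a median change of 0.53. MAM1, the enzyme of methionine chain elongation, had 5.46, 4.72 and 5.14 on day 12, against 4.16, 3.83 and 4.09 on day 11 and rose by 1.08 ± 0.22 (adjusted p = 0.0322). MYB29 rose by 0.59 ± 0.10 (adjusted p = 0.0229) and lay near the array median, at 3.97 on day 12 and 3.38 on day 11. MYB28 changed by 0.74 (adjusted p = 0.109) and BCAT4, the first enzyme of the pathway, by 0.88 (adjusted p = 0.429). With 1 array left out, adjusted p reached 0.146 for MAM1 (without replicate 2 of day 11) and 0.119 for MYB29 (without replicate 3 of day 12).

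Among phloem markers, 1 gene rose. SWEET11, a sucrose exporter of phloem parenchyma, had 4.60, 4.93 and 5.11 on day 12, against 4.03, 3.47 and 3.40 on day 11. Its rise of 1.25 ± 0.18 (adjusted p = 0.00918) was the single call of 8 probe sets, where 0.364% of all probe sets were called higher. Without replicate 3 of day 12 its adjusted p was 0.0587. For 6 of the 8, day 12 lay wholly above day 11 (8.32% of all), among them SUC2, the sucrose loader of companion cells, with 0.71 (adjusted p = 0.0861), and APL, a phloem identity factor, with 0.59 (adjusted p = 0.114). The log2 of the summed signal of the 8 ranged from 7.36 to 7.69 on day 12 and from 6.77 to 6.88 on day 11. Among 10 xylem and secondary wall markers none was called, and XCP2, a protease of maturing vessels, changed by 0.85 (adjusted p = 0.275).

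Epidermal genes included a pair of large falls. GL1, the MYB factor that starts trichomes, had 3.91, 4.60 and 4.06 on day 12, against 5.45, 5.42 and 5.45 on day 11 and fell by 1.25 ± 0.19 (adjusted p = 0.0108, and 0.0636 without replicate 3 of day 12). Its mean was 7.63, 7.21, 5.85, 5.44, 4.19 and 3.25 from day 8 to day 13. It was the single call of 18 trichome probe sets, where 0.331% of all probe sets were called lower. A lower mean was found for 14 of the 18 (50.3% of all), and day 12 lay wholly below day 11 for 7 (9.06%). At an unadjusted p under 0.05, limma had 6 lower and 1 higher, against 5.85% and 5.86% of all. TRY, an inhibitor of trichome fate, changed by 0.99 (adjusted p = 0.0615). LTP2, a lipid transfer protein of young epidermis, measured 7.72, 8.73 and 7.54 on day 12, against 9.64, 9.72 and 9.35 on day 11 and fell by 1.57 ± 0.31 (adjusted p = 0.0293, and 0.16 without replicate 3 of day 12). It was the single call of 14 epidermis and cuticle probe sets, whose median change was -0.08. The stomatal lineage gave 0 of 18, with -0.52 for SPCH, the factor that starts the lineage (adjusted p = 0.212). Guard cell markers gave 0 of 11, with a higher mean in all 11 and 0.77 for the myrosinase gene TGG1 (adjusted p = 0.537).

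Flavonoid and anthocyanin genes had lower means on day 12 in all 12 probe sets (50.3% of all probe sets did), with 8 wholly below day 11, against 9.06% of all, and a median change of -0.64. CHI, chalcone isomerase, had 6.62, 6.69 and 6.53 on day 12, against 7.32, 7.44 and 7.43 on day 11, and fell by 0.79 ± 0.17 (adjusted p = 0.0405). It was the single call of the 12, where 0.331% of all probe sets were called lower. It lost its call in each fit that left out 1 array, with a highest adjusted p of 0.172, without replicate 3 of day 12. DFR, which makes anthocyanin precursors, changed by -1.45 (adjusted p = 0.287) and the regulator MYB75 by -1.15 (adjusted p = 0.161).

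Photosynthesis genes gave 0 calls in 64 probe sets, and at an unadjusted p under 0.05 limma had 1 light harvesting, 1 photosystem and 5 carbon fixation probe sets higher and 0 lower. Over all probe sets 5.86% were higher and 5.85% lower at that threshold, and 49.7% had a higher mean. All 24 photosystem and electron transport subunits had a higher mean on day 12, 13 of them with day 12 wholly above day 11 (8.32% of all), at a median change of 0.20, and PSAE-1 changed most, by 0.25 (adjusted p = 0.527). All 26 probe sets for carbon fixation and photorespiration were higher in mean too, with a median of 0.26. CP12-2, a regulator of the Calvin cycle, changed by 0.87 (adjusted p = 0.311), and CA1, a carbonic anhydrase, by 0.38 (adjusted p = 0.835). Light harvesting genes had a median of 0.18, with a higher mean in 13 of 14. LHCB2.3 stood at 11.61 on day 12 and 11.23 on day 11, a change of 0.39 (adjusted p = 0.527), and LHCB4.3 changed by 0.43 (adjusted p = 0.567). Median levels were high on both days, at 12.10 on day 12 and 11.93 on day 11 for light harvesting genes.

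Other lists without a call covered stress, defence and the clock. Of the 15 clock probe sets, 5 were higher and 1 lower at an unadjusted p under 0.05, against 5.86% and 5.85% of all probe sets. The largest changes within their lists were 0.92 for the clock gene RVE1 (adjusted p = 0.0654), -0.71 for the stress regulator ZAT12 (adjusted p = 0.497) and -0.55 for the nucleolar protein gene FIB2 (adjusted p = 0.388). Cold-regulated COR47 changed by -0.54 (adjusted p = 0.617), the jasmonate-induced VSP1 by -0.48 (adjusted p = 0.647), the starvation gene BT5 by -0.48 (adjusted p = 0.762), MBF1C of the heat list by 0.31 (adjusted p = 0.607) and the defence marker PR1 by 0.27 (adjusted p = 0.565). Among markers of other organs the seed storage gene SESA1 changed most, by -0.40 (adjusted p = 0.267), with both days below the array median. In all, 14 of 41 lists held a called member, and 27 of the 605 probe sets were called, 19 lower and 8 higher. Over all probe sets 0.331% were called lower and 0.364% higher.

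**Figure D4:**
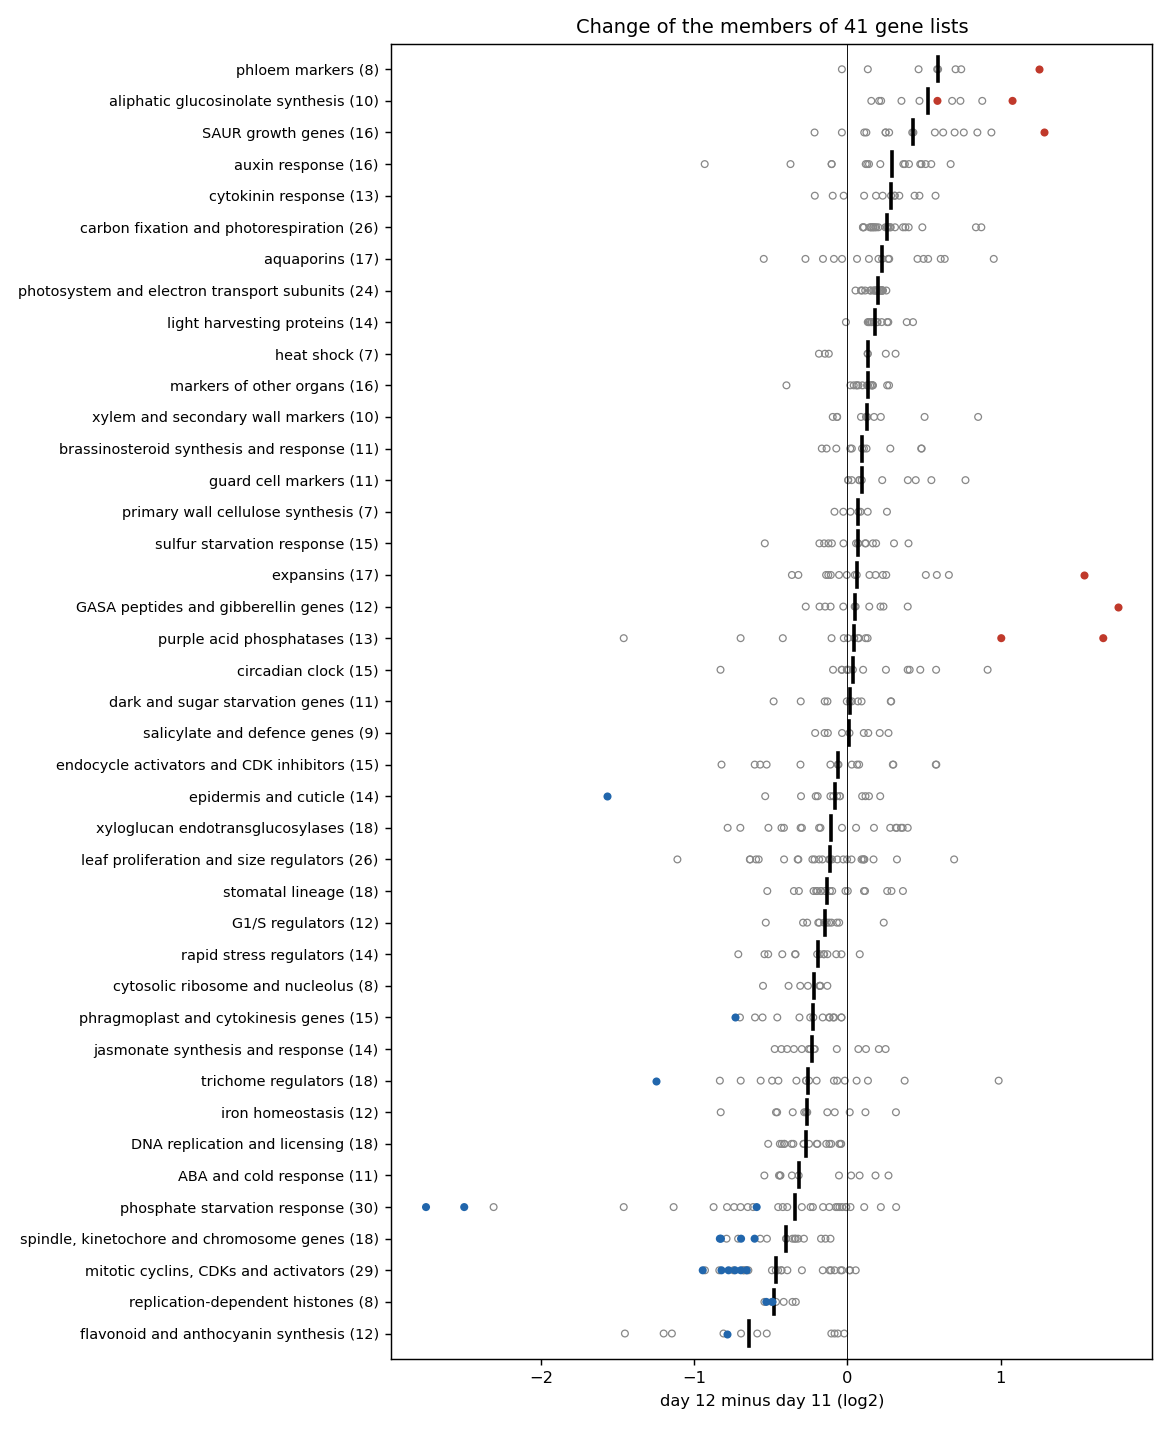
Change (day 12 minus day 11, log2) of each probe set in the 41 gene lists, with the number of probe sets in brackets and the list median as a black bar. Filled points are called at an adjusted p under 0.05 (red higher, blue lower), and open points are not. The called falls gather in the mitosis, histone and phosphate lists.

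Named by size of change, 4 more rises lay outside the lists. BBX14 and BBX16, zinc finger B-box factors, had levels of 6.50, 6.16 and 7.12 on day 12, against 5.34, 5.45 and 5.47 on day 11, and of 5.91, 5.64 and 6.17 on day 12, against 4.42, 4.97 and 4.86 on day 11. They rose by 1.17 ± 0.18 (adjusted p = 0.0123) and 1.16 ± 0.20 (adjusted p = 0.0219). RL4, a RADIALIS-like MYB gene, had 5.04, 4.63 and 4.21 on day 12, against 3.59, 3.33 and 3.21 on day 11 and rose by 1.25 ± 0.22 (adjusted p = 0.0219). SNRK2-8, a kinase of the SnRK2 family, had 5.11, 4.90 and 5.62 on day 12, against 4.07, 4.14 and 3.99 on day 11 and rose by 1.14 ± 0.16 (adjusted p = 0.00753), and its call held without any 1 array. BGLU33, a member of the beta-glucosidase family, also held throughout. It rose by 0.63 ± 0.09 (adjusted p = 0.00753) and lay at 3.74 on day 12, against 3.1 on day 11, below the array median there. Adjusted p reached 0.053 for BBX14 and 0.0805 for RL4 without replicate 2 of day 11, and 0.119 for BBX16 without replicate 3 of day 12.

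Falls outside the lists included RTFL8, a small peptide of the ROTUNDIFOLIA-like family, with 5.74, 5.91 and 5.63 on day 12, against 6.78, 6.82 and 6.50 on day 11 and a fall of 0.94 ± 0.18 (adjusted p = 0.027). CXE18, a carboxylesterase, had 4.33, 4.51 and 4.21 on day 12, against 5.31, 5.31 and 5.15 on day 11 and fell by 0.90 ± 0.18 (adjusted p = 0.0279). ENO1, the plastid enolase, had 4.83, 4.64 and 4.43 on day 12, against 5.53, 5.72 and 5.31 on day 11 and fell by 0.89 ± 0.15 (adjusted p = 0.0181). Over the time course these genes had their highest means before day 11, with 7.47 for CXE18 and 8.11 for RTFL8 on day 8. Without replicate 3 of day 12, adjusted p was 0.139 for RTFL8, 0.146 for CXE18 and 0.102 for ENO1.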

How the data were processed

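RNA of leaf 3 was measured on 1 AGRONOMICS1 array per sample. The authors deposited log2 values per probe set, made with RMA, and the genome build was TAIR9, per the submitters' processing notes. RMA's quantile step gives arrays like distributions (medians 3.58 to 3.63 here). Its version, any filter, detection calls and scan batches are not given in the sources used, and raw intensities were not used. Arrays give no counts, so 3 arrays a day limit the precision.

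Groups followed the labels. The 18 untreated arrays were fitted with limma 3.58.1 in R 4.3.3 with 1 coefficient per day and eBayes (12 residual and 4.32 prior degrees of freedom). P-values of day 12 minus day 11 (two-sided), and of its difference from day 10 minus day 9, were adjusted with the Benjamini-Hochberg method across the 30237 probe sets, and those under an adjusted p of 0.05 were called. An exact permutation test of 3 against 3 arrays cannot go below 0.1. Columns of other samples numbered 0. Deviations of same-numbered repeats of days 12 and 11 correlated at -0.02 to 0.04. With 3 arrays a day this cannot show whether the numbers pair samples, and the main fit treated them as unpaired. The fit was tested on simulated data.

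The members, the 41 lists (618 entries, 595 tested, 9 not measured, 14 with another name in the reference) and the naming rules were chosen with earlier results of these data known. Named genes are the 10 largest rises and 10 largest falls among called probe sets with a symbol, separate days and a mean on the higher day no lower than the median probe set, up to 3 called members of each list, the largest change of a list without calls, calls that held without any 1 array, and 18 given genes, and further list members were named after their values were seen. Names came from a TAIR10.1 gene table (29398 of 29920 loci), and promoter sequences were not used here. The alternatives were the arrays in the fit, a replicate block, normalization, a filter on dim probe sets, the prior, array weights, probe sets per locus and each array left out.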

Additional observations from a re-analysis of the deposited data

Results flagged for a closer look

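The change over days 11 to 12 differed from that over days 9 to 10, by limma's test of the difference itself, for 4 of the named genes. The difference was -5.33 for SRG3 (adjusted p = 0.00853), -5.22 for SPX1 (adjusted p = 0.00527) and -2.61 for PFA-DSP4 (adjusted p = 0.0135). Each of these had a higher mean on day 10 than on day 9 and a lower mean on day 12 than on day 11. For PAP8 it was 1.60 (adjusted p = 0.0351), with a change near 0 over days 9 to 10.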

How the results depend on the processing

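The 210 calls became 3 with only the 6 arrays of days 12 and 11 in the fit, 336 with the arrays quantile normalized again and 357 without dim probe sets, and 10 to 242 with 1 array left out. The 42 differences between intervals became 73 without dim probe sets and 99 with array weights, and 4 to 26 with 1 array of day 12 or 11 left out. No fit left out a single array of day 9 or 10, which this difference also uses. The 27 calls in the gene lists became 1 with only the 6 arrays, 52 without dim probe sets and 41 with array weights, and 2 to 37 with 1 array left out. Repeat numbers are not known to pair samples (45 pairs in the time course correlated at -0.25 to 0.17, 2 of them over 0.1), and with the replicate block the counts were 159, 24 and 20. An intensity trend, a robust prior and 1 probe set per locus moved each count by less than 1.5 times. No called gene among the 37 named changed direction under the 14 alternatives. Their days were separate, so leaving out 1 array could not reverse a change, and the kept direction is no further support. Many lost their call. Of the 37, 35 lost it with only the 6 arrays, 32 without replicate 2 of day 11 and 30 without replicate 3 of day 12. The filter tests fewer probe sets and the 6 arrays leave fewer residual degrees of freedom, but the cause of these and the other shifts was not tested. Of the called probe sets, 26 higher and 8 lower lay at or below the array median on their dimmer day, so their changes may be understated. Changes picked by calls on these same arrays may also be overstated. Of the 210, 31 were called in none of the 6 fits that left out 1 array.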

Other observations

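Some gene families were looked up after their values were seen, and HTA2, HTA10, HTA13, SWEET4, SWEET11, SWEET12 and LTP2 among them are also in the lists above. Calls made up 0.364% (higher) and 0.331% (lower) of the whole array, and 49.7% had a higher mean and 50.3% a lower one. Of 11 probe sets for histone H2A genes, 3 fell and all 11 had a lower mean on day 12. HTA11 and HTA8, which encode the variant H2A.Z, fell by 0.70 ± 0.11 (adjusted p = 0.0152) and 0.67 ± 0.14 (adjusted p = 0.0339), and H2AXA, a variant of DNA repair, by 0.46 ± 0.09 (adjusted p = 0.0322). HTA9, also an H2A.Z gene, was not called, with a change of -0.18 (adjusted p = 0.45). Of 19 B-box genes 3 rose, BBX14, BBX16 and BBX27, the last by 1.06 ± 0.17 (adjusted p = 0.0144), and 16 had a higher mean. Among 22 early nodulin-like genes, which encode cell surface proteins, ENODL13, ENODL14 and ENODL15 fell by 0.85 ± 0.18, 0.65 ± 0.14 and 0.70 ± 0.14 (adjusted p = 0.0352, 0.0409 and 0.0322), while ENODL9 rose by 0.53 ± 0.11 (adjusted p = 0.0409). Of 15 SWEET transporter genes, SWEET2 rose beside SWEET11, by 0.63 ± 0.12 (adjusted p = 0.0279). Of 4 probe sets for acyl carrier proteins, of fatty acid synthesis, ACP1 and ACP2 fell by 0.45 ± 0.08 and 0.65 ± 0.13 (adjusted p = 0.0267 and 0.0344). ACP4 changed by 0.24 (adjusted p = 0.28) and ACP5, below the array median on both days, by -0.40 (adjusted p = 0.365). Of 6 cyclophilin probe sets, ROC1 and ROC3 fell by 0.49 ± 0.10 and 0.46 ± 0.10 (adjusted p = 0.0299 and 0.0426), and 5 had a lower mean. Of 6 lipid transfer protein probe sets, LTP6 fell beside LTP2, by 0.77 ± 0.15 (adjusted p = 0.0322), while 4 had a higher mean and the median change was 0.02. HTA8, H2AXA, ACP2, ROC1 and ROC3 lost their calls in each of the 6 fits that left out 1 array, with a highest adjusted p of 0.143 to 0.192, reached without replicate 3 of day 12. The highest adjusted p was 0.0898 to 0.201 for HTA11, BBX27, ENODL9, ENODL13, ENODL14, ENODL15, SWEET2 and LTP6, also without replicate 3 of day 12, and 0.123 for ACP1, without replicate 2 of day 11.

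The largest change of all called probe sets belonged to the locus AT3G02480, with 5.54, 3.62 and 5.24 on day 12, against 8.18, 8.88 and 8.84 on day 11, a fall of 3.83 ± 0.65 (adjusted p = 0.0214). Its mean over days 8 to 13 was 5.85, 6.01, 7.43, 8.63, 4.80 and 4.44. AT2G41730 had 3.92, 3.92 and 3.40 on day 12, against 5.83, 6.33 and 7.21 on day 11 and fell by 2.71 ± 0.35 (adjusted p = 0.00673), a call that held without any 1 array. The largest rise was that of AT1G23130, with 5.01, 5.48 and 6.45 on day 12, against 3.85, 3.79 and 3.68 on day 11 and a rise of 1.88 ± 0.26 (adjusted p = 0.00753). The reference table gives no symbol for these 3 loci.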
